A study of Mus musculus with 10 samples.

Results

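Cathepsins are the proteases of the lysosome, and cystatin F is a secreted and lysosomal inhibitor of some of them. The group described here holds 10 genes chosen by symbol, 9 cathepsin genes (Ctsa, Ctsb, Ctsc, Ctsd, Ctsh, Ctsl, Ctss, Ctsw and Ctsz) and Cst7, the gene of cystatin F, out of 22329 genes in the table. All 10 had a row, and all 10 passed the filter on low values that left 12497 genes to test (a TPM of 1 in at least 5 libraries). Ctsw and Cst7 reached that level in only 2 control libraries each, so they passed through the cytokine mRNA group, where they are high. They were measured by RNA sequencing in 10 tumours of B16F10, a pigmented mouse melanoma cell line, grown under the skin of C57BL/6 mice from 500000 injected cells. Each tumour received a single injection of 80 µg mRNA into the tumour and was collected 7 days later. In the control group of 5 tumours (libraries 1 to 5) the mRNA encoded luciferase. In the cytokine mRNA group of 5 tumours (libraries 6 to 10) it was a mixture of 4 mRNAs, 20 µg of each, for mouse single-chain IL-12, IL-15sushi, GM-CSF and interferon alpha. All tumours came from the same cell line, and both groups received mRNA, so there is no tumour without injected mRNA.

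Most cathepsins are cysteine proteases made as inactive precursors that are cut to the active form in the acid lysosome. Cathepsin D is instead an aspartic protease and cathepsin A a serine carboxypeptidase. Phagocytes and other antigen-presenting cells use cathepsins to degrade engulfed protein and to trim the invariant chain from MHC class II molecules. In cytotoxic lymphocytes cathepsin C, also called dipeptidyl peptidase I, removes a short N-terminal piece from granzyme precursors, and cystatin F can inhibit it. Tumour cells, fibroblasts and endothelial cells also express the widespread cathepsins B, D, L and Z.

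Values are TPM, a share of the library corrected for transcript length, so levels can be compared between genes. The sequencing depth is unknown and 11513 to 12984 genes reached a TPM of 1 per library. Summed markers of the melanocyte lineage lay between 2532 and 16515 TPM in 9 libraries, but reached only 17.9 TPM in library 7, where none of the 8 genes exceeded 4.79 TPM. The library labelled cytokine mRNA tumour 7 therefore lacked most of the signal that defines the labelled tumour. Cytokine library 10 had the lowest summed level of its group for the macrophage and monocyte list (928 TPM), close to the highest control (701 TPM). Control library 5 had the lowest levels of that list (149 TPM). Control library 1 had the highest of the controls (701 TPM). It also had the lowest melanocyte lineage sum among controls, 2532 TPM against 13668 to 16042 TPM in the others. Values are given below with and without libraries 6, 7 and 10 where this changes a call.

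Together the 10 genes took 0.250% ± 0.016 of all TPM in control tumours and 0.776% ± 0.251 in cytokine mRNA tumours (SD, n = 5 per group). The share ran from 0.224% to 0.262% in controls and from 0.367% to 1.04% in cytokine mRNA tumours, with no overlap. Of the 10 genes, 8 rose and none fell at a limma adjusted p under 0.05 over all tested genes: Ctss, Ctsw, Cst7, Ctsh, Ctsc, Ctsb, Ctsl and Ctsd. Leaving aside Ctsw and Cst7, whose entry into the test depended on their high levels in cytokine mRNA tumours, 6 of the other 8 rose. In the same fit 7.41% of all tested genes were called higher and 3.02% lower. At an unadjusted p under 0.05 in limma all 10 were higher. Of all tested genes 3813 (30.5%) were past that level in either direction, and 2009 of these were lower. The 5 cytokine mRNA tumours all lay above the 5 controls for 8 of the 10, and for 6 of the 8 without Ctsw and Cst7, against 5.45% of all tested genes. The exceptions were Ctsh and Ctsz, each with 4 of 5 cytokine mRNA tumours above the highest control. The median log2 change was 1.86 for the 10 genes and -0.18 for all tested genes.

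**Figure D1:**
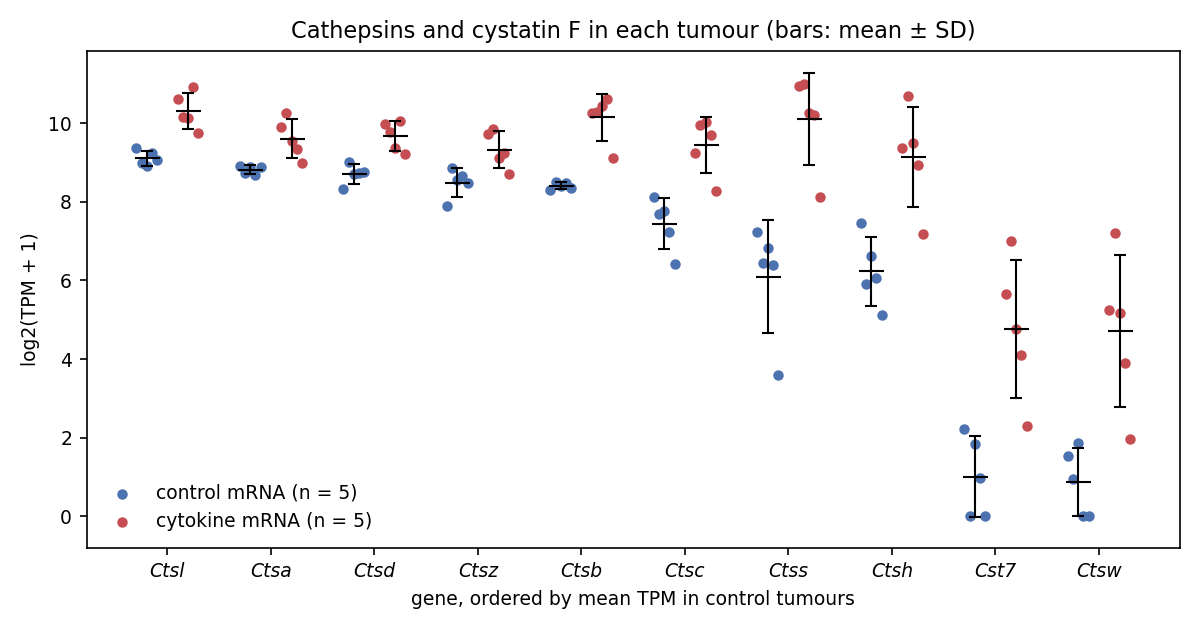
Levels of the 10 genes, as log2(TPM + 1), in 5 control mRNA and 5 cytokine mRNA tumours, each point 1 tumour and each bar the mean ± SD, with genes ordered by mean TPM in control tumours. Ctsl to Ctsb sit near or above a log2 value of 8 in every tumour, while Cst7 and Ctsw are near the bottom in controls and spread widely in cytokine mRNA tumours.

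The count of 8 rested on single libraries. It was 3 without library 6, with Ctsb, Ctsc and Ctss called (2.57% of all tested genes called higher), and 10 without library 10 (13.2%). It was 7 or 8 without any other 1 library. Without libraries 6 and 7 together it was 0 of 10, with 10 at an unadjusted p under 0.05 and the 10 adjusted p from 0.0628 to 0.238 in limma, and 0.152% of all tested genes were called higher. Without libraries 6, 7 and 10 only libraries 8 and 9 of the cytokine mRNA group were left against 5 controls. There it was 9 of 10, where 7.6% of all tested genes were called higher. That fit leaves out library 10, the lowest of its group for all 10 genes. In all of these fits the 10 log2 changes were above 0. An exact rank test called 0 of 10 after adjustment over all genes and 10 of 10 at an unadjusted p under 0.05. It called 0 of 12497 genes in all. At an unadjusted p under 0.05 it had 2914 (23.3%) in either direction, of which 1483 were lower.

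Ctss, the cathepsin of professional antigen-presenting cells that makes the late cuts in the invariant chain and stays active outside acid compartments, had the largest log2 change of the 10 in the fit to all libraries. Its place over Ctsw was not stable: Ctsw was larger with a pseudocount of 0.1 (as was Cst7), after rescaling without mitochondrial genes or the 50 most abundant genes, and without control library 5 or cytokine library 9 or 10, and Cst7 was larger than Ctss in some of these fits too. Its level was 148, 86.1, 112, 82.7 and 11.0 TPM in control libraries 1 to 5. It was 1967, 2041, 1227, 1179.5 and 277 TPM in cytokine libraries 6 to 10. The groups did not overlap, although library 10 was far below the others of its group and control library 5 was far below the other controls. The mean rose from 88.0 ± 50.4 to 1338 ± 716 TPM (SD, n = 5), a 15.2-fold difference of means. On the log2(TPM + 1) scale the rise was 4.01 ± 0.71 (SE; limma adjusted p = 0.0125). It ranked 40 among all 12497 tested genes by log2 change. Without libraries 6 and 7 the log2 change was 3.44.

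The promoter of Ctss holds the letters GAAA, any 2 bases and GAAA again, the pattern of interferon-stimulated response elements, just before its start site. The match GAAACCGAAA lies at bases -21 to -12, and the window shown is chr3:95526725-95526785 of mouse build GRCm38.p6, plus strand, from RefSeq. It is shown because Ctss is the most changed of the abundant members and the only member of the 7 with a promoter in the RefSeq table that holds this pattern, on either strand, in the 250 bases before its start. Capitals mark the match.
Ctss: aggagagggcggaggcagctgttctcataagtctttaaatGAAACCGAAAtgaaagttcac
Of 32851 promoter windows of the same length, 2.98% hold the pattern. The match describes these letters and is no measurement of binding.

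Cst7 and Ctsw were close to the detection floor in control tumours. Cystatin F, from Cst7, is made by cytotoxic lymphocytes and myeloid cells. Cst7 was at 3.70, 0, 2.60, 0.973 and 0 TPM in control libraries 1 to 5, and at 49.4, 128, 26.2, 16.04 and 3.92 TPM in cytokine libraries 6 to 10. The groups did not overlap, but library 10 exceeded the highest control only slightly. Ctsw, a cathepsin of NK cells and CD8 T cells, was at 1.89, 0.948, 2.64, 0 and 0 TPM in controls and at 37.3, 147, 34.9, 14.0 and 2.90 TPM in cytokine mRNA tumours. Again library 7 was highest and library 10 barely above the controls. The log2 rise was 3.75 ± 0.79 (SE) in Cst7 and 3.83 ± 0.82 in Ctsw, with limma adjusted p of 0.0176 and 0.0182. Without library 7 the cytokine mRNA means fell from 44.6 to 23.9 TPM for Cst7 and from 47.2 to 22.3 TPM for Ctsw, and both calls were lost without library 6 (limma adjusted p = 0.0550 and 0.0559). Each was listed at 0 in 2 control libraries, so no fold of TPM is given.

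Cathepsin C is the protease that cystatin F can inhibit in granules. Ctsc was at 279, 205, 217, 149 and 84.5 TPM in control libraries and at 606, 989, 1050.2, 822 and 311 TPM in cytokine libraries. The lowest cytokine mRNA tumour, library 10, was just above the highest control. The mean rose from 187 ± 73.6 to 756 ± 302 TPM (SD, n = 5), 4.04-fold, and by 1.996 ± 0.394 (SE) on the log2 scale (limma adjusted p = 0.0156). Ctsc was thus far more abundant than Cst7 in both groups. As a linear ratio of TPM, Cst7 over Ctsc was at most 0.0133 in controls and ran from 0.0126 to 0.129 in cytokine mRNA tumours.

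The promoter of Ctsc is shown as the contrasting case. It lacks that interferon-type pattern but holds TTCNNNGAA, the pattern of gamma-activated sites, once, and GAGGAAG, a PU.1-type pattern on the reverse strand (as CTTCCTC), 2 times. The window is chr7:88277835-88277934, GRCm38.p6, plus strand, bases -250 to -151, and capitals mark the first pattern and 1 of the matches to the second.
Ctsc: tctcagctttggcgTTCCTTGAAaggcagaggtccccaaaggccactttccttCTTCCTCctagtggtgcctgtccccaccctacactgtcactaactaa
Of all promoter windows 7.02% hold the first pattern and 10.6% the second, on either strand. Of the 7 members with a window, only Ctsc holds either.

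Among Ctsh, Ctsb, Ctsl and Ctsz, the other cysteine cathepsins, Ctsh had the largest log2 change, below the 4.01 of Ctss. Ctsb and Ctsl rose from a high level. Ctsh, an aminopeptidase, was at 175, 59.3, 96.8, 65.6 and 33.6 TPM in controls and at 655, 1652, 715, 486 and 144 TPM in cytokine mRNA tumours. Library 10 fell inside the control range. The mean rose 8.48-fold, from 86.1 ± 54.7 to 730.2 ± 561 TPM (SD, n = 5), and the cytokine mRNA mean was 499.9 TPM without library 7. The log2 change was 2.90 ± 0.59 (SE, limma adjusted p = 0.0168, and 0.0510 without library 6).

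Ctsb, an endopeptidase that also acts as a dipeptide-removing carboxypeptidase, was the steadiest gene of the group among controls, at 316, 362, 339.7, 357 and 324 TPM. It was at 1229, 1244, 1384, 1567 and 556 TPM in cytokine libraries. Library 10 stood apart from the other 4 but was above every control. The log2 rise was 1.73 ± 0.27 (SE; 3.52-fold in means), and its limma adjusted p of 0.00994 was the lowest of the 10. It was also the only member called at an adjusted p under 0.01, as were 0.488% of all tested genes, all of them higher.

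Ctsl, an endopeptidase with broad expression, was the most abundant of the 10 in controls. It was at 657, 503, 475, 605 and 529 TPM there and at 1557, 1146, 1112, 1948 and 860.3 TPM in cytokine mRNA tumours, without overlap. The log2 rise was 1.21 ± 0.25 (SE; limma adjusted p = 0.0172, and 0.0502 without library 6). Ctsz, a carboxypeptidase also called cathepsin X, was at 235, 461, 372, 401 and 355 TPM in controls and at 849, 919.6, 553, 601 and 418 TPM in cytokine mRNA tumours. Library 10 lay inside the control range, and the log2 difference of 0.85 ± 0.27 (SE) did not pass (limma adjusted p = 0.0673, and 0.0178 without library 10).

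The genes of the other catalytic types, Ctsd and Ctsa, showed the smallest differences together with Ctsz. Ctsd, the aspartic cathepsin, was at 318, 517, 419, 424 and 433 TPM in controls and at 1008, 868, 655, 1060.0 and 593 TPM in cytokine mRNA tumours. All 5 cytokine mRNA tumours were above the highest control. The log2 rise was 0.97 ± 0.23 (SE; 1.98-fold in means; limma adjusted p = 0.0266). Of the 8 calls this was lost most often when 1 library was left out, in 6 of 10 fits that left out 1 library (control library 1, 3, 4 or 5, or cytokine library 6 or 9) and after rescaling without mitochondrial genes (limma adjusted p = 0.0575). Ctsa, the serine carboxypeptidase that also holds the sialidase Neu1 and the galactosidase Glb1 in a protective complex, was at 483, 426, 470.1, 407 and 468 TPM in controls and at 948, 1229, 739, 652 and 508 TPM in cytokine mRNA tumours. The groups did not overlap, yet the log2 difference of 0.79 ± 0.25 (SE) did not pass (limma adjusted p = 0.0635, and 0.0131 without library 10). Its partners, named outside the naming rule, did not pass either: Neu1 was at 57.1 ± 18.8 and 44.7 ± 22.2 TPM and Glb1 at 36.3 ± 8.998 and 29.6 ± 7.99 TPM (SD, n = 5).

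**Figure D2:**
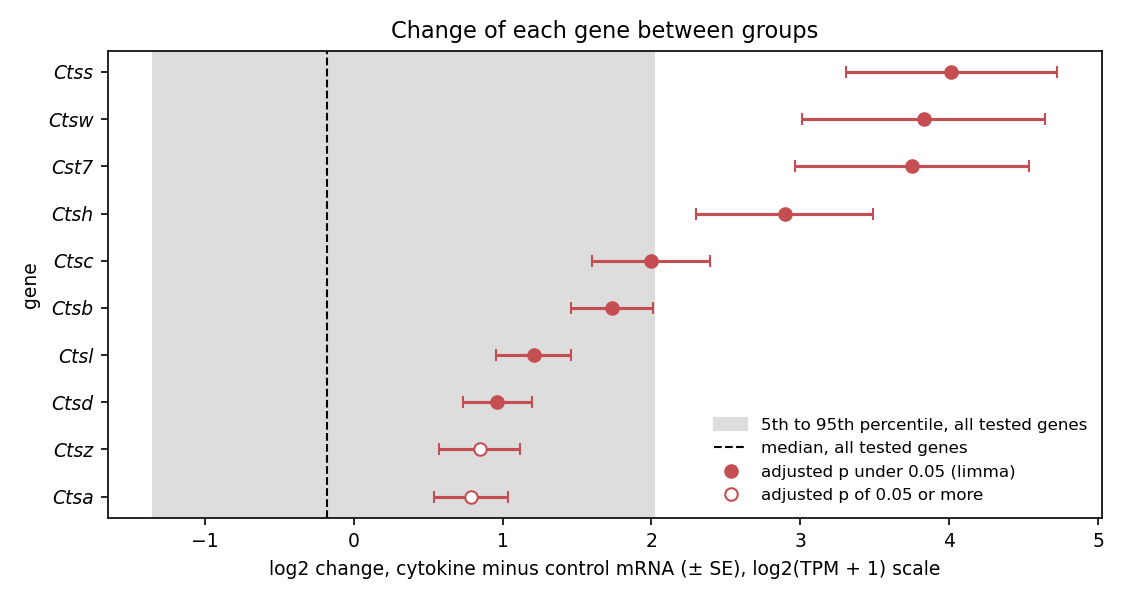
Log2 change of each gene, cytokine minus control mRNA, on the log2(TPM + 1) scale with its SE, beside the median of all tested genes (dashed, -0.18) and their 5th to 95th percentile (grey, -1.34 to 2.02). Ctss, Ctsw, Cst7 and Ctsh lie to the right of the grey band, and the open symbols of Ctsa and Ctsz mark the genes that did not pass.

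The promoters of Ctsa and Ctsd share the letters CACGTGA, an E-box of the type bound by TFEB and related regulators of lysosomal genes, and they are shown because these genes had among the smallest differences of the group. Ctsa holds it at bases -13 to -6, read as TCACGTGA, which contains the pattern on both strands. Ctsd holds the same TCACGTGA at bases -99 to -92 and the pattern once more further upstream. The windows are chr2:164833720-164833772, plus strand, and chr7:142387879-142387966, minus strand, of GRCm38.p6, each printed 5′ to 3′ on the gene's strand with the matches in capitals.
Ctsa: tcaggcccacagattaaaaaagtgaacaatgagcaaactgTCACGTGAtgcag
Ctsd: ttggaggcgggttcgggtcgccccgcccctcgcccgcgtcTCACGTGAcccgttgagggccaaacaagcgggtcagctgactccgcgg
Of all promoter windows 3.13% hold the pattern on either strand. The 7 members with a window have 8 windows, of which the 2 shown hold it. Ctsa has 2 windows, and its other window lacks the pattern. Neither Ctsa nor Ctsd holds the interferon-type letters found in Ctss. Cst7, Ctsl and Ctsz held none of the 4 patterns searched, and Ctsb, Ctsh and Ctsw had no window in the table.

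Whether members changed by different amounts was tested as log ratios within each tumour. For the abundant members these hardly depend on how much of the library other genes take. For Ctsw and Cst7, at 0 TPM in 2 controls each, they depend on the pseudocount. Relative to Ctsd, Ctss went from -2.62 ± 1.54 to 0.43 ± 0.94 (SD, n = 5) on the log2 scale, a difference of 3.05 (exact 2-sided permutation p = 0.00794, the smallest possible with 5 against 5; adjusted over 10 ratios p = 0.0476). Ctss was thus below Ctsd in all 5 controls and above it in 4 of 5 cytokine mRNA tumours. The groups almost touched: library 10 was at -1.095 and the highest control, library 1, at -1.096. Ctsw and Cst7 also gained on Ctsd, by 2.86 and 2.78, and Ctsb by 0.77 (exact permutation, adjusted p = 0.0476 each). Cst7 gained on Ctsc by 1.75 (exact permutation, adjusted p = 0.0476). The sizes of the ratios with Ctsw or Cst7 are set largely by the pseudocount: from a pseudocount of 5 to 1 of 0.1 they ran from 1.49 to 4.45 for Ctsw against Ctsd, from 1.45 to 4.34 for Cst7 against Ctsd and from 0.44 to 3.31 for Cst7 against Ctsc. For Ctsh and Ctsc the gain on Ctsd was 1.93 and 1.03 and did not pass (exact permutation, adjusted p = 0.0529 and 0.0794). The log ratios of Ctsa, Ctsz and Ctsl to Ctsd differed by -0.18, -0.12 and 0.24 (exact permutation, adjusted p = 0.516, 0.516 and 0.327). All 5 calls sat just under the threshold: 0 of 10 ratios passed without control library 2, 3, 4 or 5 or cytokine library 6, 7, 8 or 9, and 8 passed without control library 1. With a pseudocount of 5, 0 of 10 passed too.

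**Figure D3:**
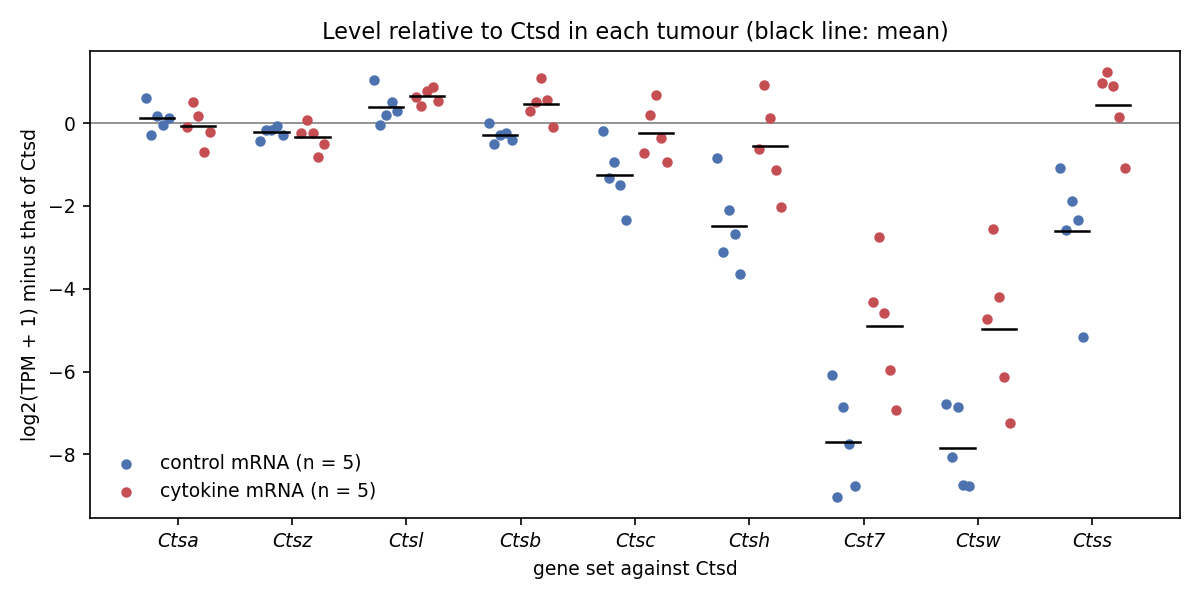
Level of each gene relative to Ctsd, as the difference of log2(TPM + 1) values in each of the 5 control and 5 cytokine mRNA tumours, with the mean as a black line. Ctsa, Ctsz and Ctsl stay within 1.05 of 0 in both groups, and Ctss passes from below 0 in all controls to above 0 in 4 of 5 cytokine mRNA tumours.

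The order of the levels changed with these differences. In control tumours the mean TPM fell from Ctsl (554) through Ctsa, Ctsd, Ctsz and Ctsb to Ctsc, Ctss and Ctsh (86.1), and then to Cst7 (1.46) and Ctsw (1.10). Neighbours in this order had overlapping ranges except at the steps from Ctsb to Ctsc and from Ctsh to Cst7. In cytokine mRNA tumours Ctss (1338) and Ctsl (1325) led, followed by Ctsb, Ctsd, Ctsa, Ctsc, Ctsh and Ctsz (668), with Ctsw (47.2) and Cst7 (44.6) last. There only the step from Ctsz to Ctsw was free of overlap. Ctss over Ctsl, as a linear ratio of TPM, ran from 0.0208 to 0.236 in controls and from 0.322 to 1.78 in cytokine mRNA tumours.

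The genes differed in which tumour was highest. Library 10 had the lowest level of the cytokine mRNA group for all 10 genes. Library 7 was highest for 6 of them (Ctsa, Ctsh, Ctss, Ctsw, Ctsz and Cst7), library 9 for Ctsb, Ctsd and Ctsl, and library 8 for Ctsc. Ctss, Ctsw and Cst7 fell in the same order of libraries, 7, 6, 8, 9 and 10. Among controls, library 5 was lowest for 5 genes (Ctsc, Ctsh, Ctss, Ctsw and Cst7, with Ctsw tied at 0 with library 4 and Cst7 with library 2).

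The other cathepsins and the cystatins gave no calls. Of 13 further cathepsin genes, 3 were tested and none passed. Ctsk, a collagen-degrading cathepsin best known from osteoclasts, was at 9.86 ± 3.20 and 11.1 ± 3.36 TPM (SD, n = 5), and Ctso at 9.65 ± 4.68 and 19.2 ± 11.6 TPM. The sign of the Ctsk difference of 0.18 on the log2 scale turned negative after rescaling without mitochondrial genes, without control library 1 and without libraries 6 and 7. A further 6, all from the placental cathepsin cluster, were listed at 0 in all 10 libraries. Of 18 cystatin and related inhibitor genes 3 were tested and none passed. Cst3, the secreted general inhibitor cystatin C, was at 859 ± 943 and 1843 ± 1418 TPM, and Cstb, the cytosolic stefin B, at 169.9 ± 29.9 and 290.2 ± 92.9 TPM (limma adjusted p = 0.192 and 0.0841). The control mean of Cst3 rests on library 1, at 2526 TPM against 285 to 640 TPM in the other 4, and without it the log2 difference was 1.80 (limma adjusted p = 0.0602). Cst7 was thus the only inhibitor gene called in the main fit to all 10 libraries, where only 3 of the 18 others could be tested. Cst10, Cst11, Cst12, Stfa3 and Stfa2l1 fell below the filter and were at 0 in every control. Cstb passed with median-ratio scaling, without library 7, without library 10 and without libraries 6, 7 and 10. Both Cst3 and Cstb passed with library weights.

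Other lysosomal genes divided. Of 56 tested, 16 rose and none fell, 28.6% against 7.41% of all tested genes, and their median log2 change was 0.31. The largest changes were in Laptm5, a lysosomal membrane protein of leukocytes (2.66 ± 0.64, SE), and Atp6v0d2, a proton pump subunit of macrophages and osteoclasts (2.43 ± 0.49). Lgmn, the asparaginyl protease that cuts cathepsin precursors, rose from 94.8 ± 32.4 to 476 ± 289 TPM, and Psap, the precursor of the saposins, from 394 ± 46.5 to 1781 ± 645 TPM (SD, n = 5). The calls of these 4 had limma adjusted p of 0.0263, 0.0165, 0.0188 and 0.0099. The call of Laptm5 was lost in 7 of the 10 fits that left out 1 library. The other 40 did not pass, and 16 of the 56 had a log2 change below 0.

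**Figure D4:**
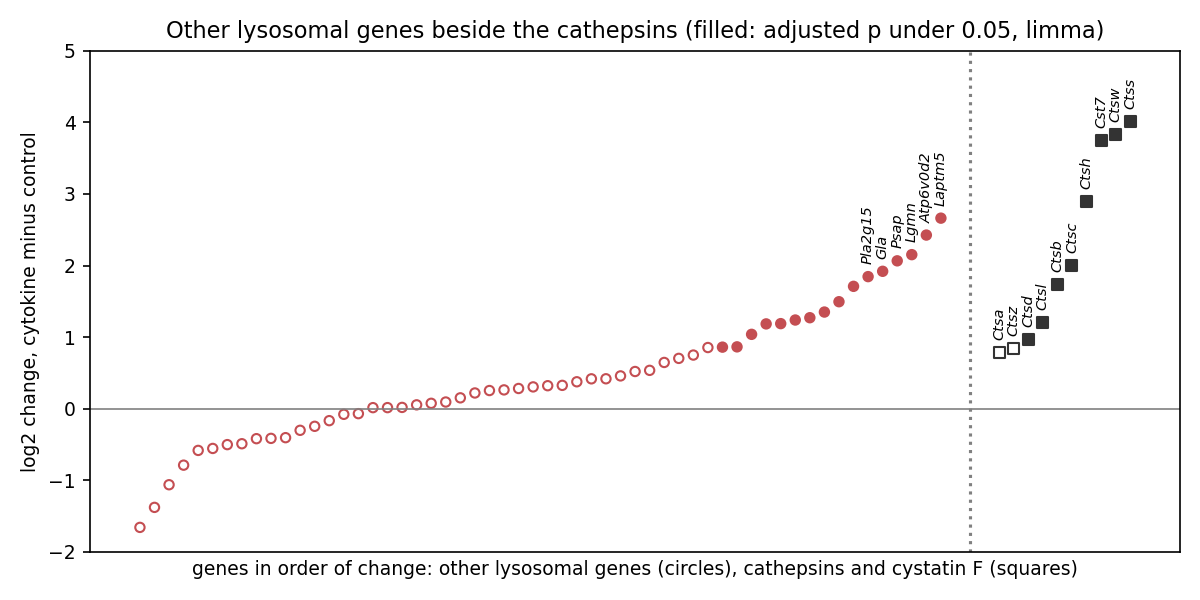
Log2 change, cytokine minus control mRNA, of 56 other lysosomal genes (circles) and the 10 genes of the group (squares), each in order of change, filled where the limma adjusted p was under 0.05. The circles run from below -1 to 2.66 with 16 filled, and the squares from 0.79 to 4.01 with 8 filled.

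Genes that work with these proteases were also counted. Of 11 tested granule serine protease genes, whose precursors include those that cathepsin C activates, 4 rose and none fell. In the same fit 7.41% of all tested genes were called higher, the share to set beside this count and the class II count below. Gzmb, the granzyme B gene, rose from 1.55 ± 1.08 to 42.0 ± 22.7 TPM, and Gzma from 1.49 ± 1.54 to 342 ± 563 TPM (95.7 TPM without library 7; SD, n = 5). The call of Gzma was lost in 7 of the 10 fits that left out 1 library (any control library, or cytokine library 6 or 8). Of the 11 granule genes 8 reached a TPM of 1 in at most 2 controls and so entered the test mainly through the cytokine mRNA group. Of 10 class II presentation genes, 8 rose and none fell, among them Cd74, the invariant chain cut by cathepsins S and L, with a log2 rise of 4.61 ± 0.95 (SE; limma adjusted p = 0.0171). In library 10 their summed level was 23.5 TPM for the granule proteases and 3380 TPM for class II, the lowest of the group in each case, as for all 10 genes described here.

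Markers of several leukocyte types were also higher in cytokine mRNA tumours, while those of the other cell types listed gave no calls. Of 15 macrophage and monocyte markers tested, 12 rose and none fell. The share of all tested genes called higher, 7.41%, stands beside this and the other marker counts given here. Their summed level was 149 to 701 TPM in controls and 928 to 16782 TPM in cytokine mRNA tumours, and none was at 0 in all libraries. The 11 cytotoxic lymphocyte and NK markers summed to 0.147 to 32.2 TPM in controls and 52.7 to 912 TPM in cytokine mRNA tumours. The 7 of them that could be tested were called higher, but 5 of these 7 reached a TPM of 1 in at most 2 controls, so the filter itself favoured genes high in the cytokine mRNA group. For T cells 4 of 5 tested rose (3.83 to 43.3 TPM against 57.3 to 3463 TPM), for conventional dendritic cells 3 of 7 (4.78 to 22.1 TPM against 22.2 to 111 TPM), and for neutrophils 2 of 3 (1.84 to 9.24 TPM against 10.5 to 191 TPM, with Camp at 0 throughout). The same holds for 2 of the 3 neutrophil, 2 of the 7 dendritic cell and 2 of the 10 class II genes tested. None of 6 fibroblast, 5 endothelial, 2 mast cell, 1 B cell and 8 melanocyte lineage genes passed. None of the 4 keratinocyte genes could be tested, and their sum stayed at or below 8.30 TPM. In such bulk tumours more cells of a type and more RNA per cell cannot be told apart, and the part of these cell types in the change of the 10 genes was not tested. Mitochondrial genes took 16.2% to 27.9% of TPM in controls and 4.44% to 19.2% in cytokine mRNA tumours. After rescaling without them 7 of the 10 genes were called (6.61% of all tested genes called higher). The median log2 change was then 1.66 for the 10 and -0.37 for all tested genes. Such rescaling multiplies all genes of a library by the same factor, so it shifts their log2 changes alike apart from the pseudocount. The gap between the 2 medians, 2.03 against 2.04 as deposited, could therefore hardly change and is no test.

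**Figure D5:**
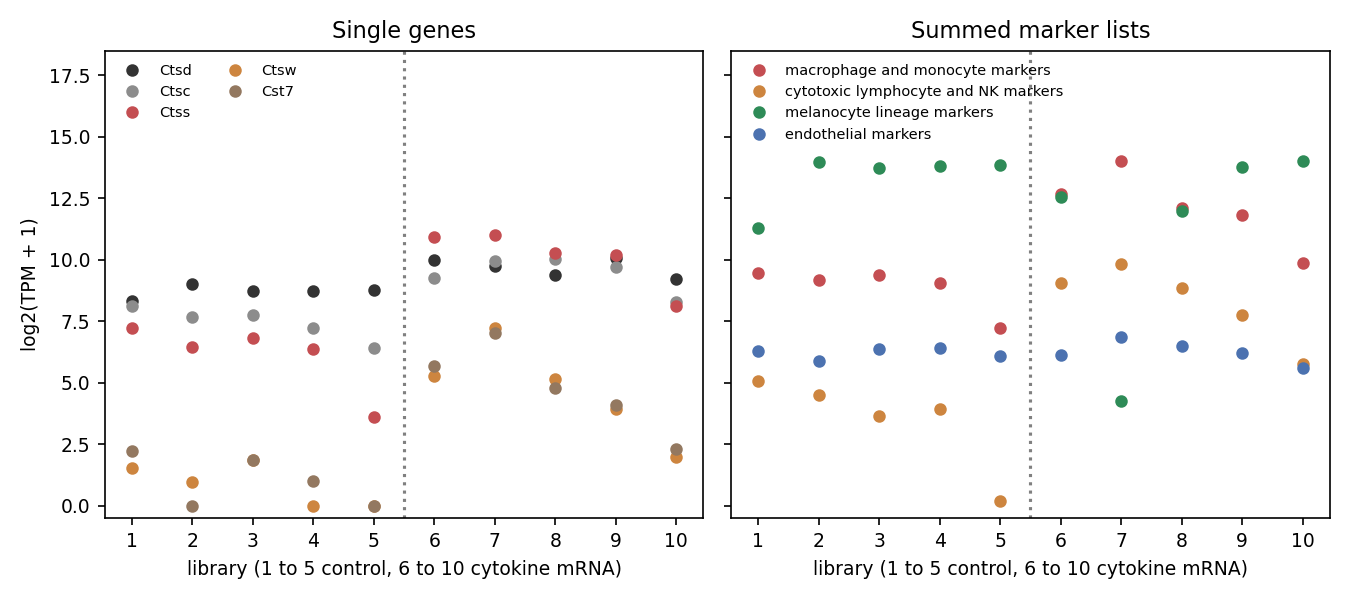
Levels by library as log2(TPM + 1) of 5 genes of the group (left) and of the summed levels of 4 marker lists (right), with libraries 1 to 5 from control and 6 to 10 from cytokine mRNA tumours. Cst7 and Ctsw are high in libraries 6 to 8 and near the controls in library 10. Ctsd varies least of the 5 genes, from 318 to 1060 TPM, and the melanocyte lineage sum drops to 17.9 TPM in library 7.

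The members were also compared by their profiles across the 10 tumours. These profiles include the difference between groups given above, so they are not a separate result. For 4 members the nearest genes were taken as those with the smallest root mean square difference of log2(TPM + 1), each gene centred on its own mean. Nearest to Ctss were Slamf7, Trim30d and Fgl2 (0.30, 0.35 and 0.36). Slamf7 is a receptor of activated leukocytes and Fgl2 a fibrinogen-related protein of macrophages and T cells. Nearest to Ctsw were Skap1, a T cell adaptor, Sept1 and Fam26f (0.31, 0.35 and 0.38). Nearest to Ctsd were Lamp2 and Npc2, both lysosomal, and Snx9, a sorting nexin (0.16, 0.19 and 0.20). Nearest to Cst7 were Lst1, Gimap4 and Ifi206 (0.39, 0.39 and 0.43). Among the 10 themselves Ctsd and Ctsz were closest (0.24), and Ctsw and Cst7 were 0.53 apart, while Ctsd and Ctsw differed by 1.93.

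Genes beside the 10 on the chromosome were mostly not called. Of the 20 protein-coding genes next to the 10 in the RefSeq gene order, 13 were tested and 1 was called, against 10.4% of all tested genes called in either direction. That gene was Pltp, the phospholipid transfer protein beside Ctsa, at 44.1 TPM in control and 380 TPM in cytokine mRNA tumours (log2 rise of 2.89 ± 0.79, SE; limma adjusted p = 0.0405), with library 10 inside the control range. Ctsk is the direct neighbour of Ctss, and its value is given above. Both genes were looked at after their values were seen.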

How the data were processed

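The authors deposited 1 table of TPM, genes by symbol against the 10 tumours, in which every library has an equal sum. Per the labels' protocols, polyA RNA was sequenced from stranded NuGEN libraries. STAR and GRCh38 are named as aligner and build per the submitters' processing notes, a human build although the symbols are mouse, so no coordinates from that build are used, and promoter positions are RefSeq's. The sources used here do not give the annotation, counting program or filters. Depth cannot be read from TPM, so there is no counting interval.

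Libraries were grouped by title, and no number is shared between groups. The design states 5 mice per group, so each library was taken as 1 tumour of 1 mouse. The test covered genes that reached a TPM of 1 in 5 or more libraries, compared on log2(TPM + 1), pseudocount 1, with limma version 3.58.1 in R 4.3.3 (eBayes with a trend, 2-sided, Benjamini-Hochberg over all tested genes, called under 0.05). Log2 changes on this scale understate low genes. Ratios of members were compared by an exact permutation test in Python 3.11.15.

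The members and lists were chosen with earlier results of these data known. The naming rule took all 10 members, for each of 5 context lists up to 4 called genes by size of change (where none was called, the 2 highest in level), and the 3 nearest genes of 4 members. Of the genes it took, Gzmf, Gzmc, H2-Ab1, H2-Aa and H2-Eb1 are not described above. Gzmf had a larger log2 change than Gzmb, and H2-Ab1 a larger one than Cd74. Chromosomal neighbours and promoter patterns were looked at after the values were seen. Promoter sequences are RefSeq's, build GRCm38.p6, matched by symbol for 7 of 10 members, and 250 bases before each start were searched on both strands for CACGTGA, the interferon-stimulated response element pattern, TTCNNNGAA and GAGGAAG. Of the list genes, Galns and Ifi30 were not analysed here. Alternatives covered pseudocount, filter, scaling, variance prior, library weights, an exact rank test, a stricter threshold and libraries left out.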

Additional observations from a re-analysis of the deposited data

Results flagged for a closer look

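Among 40 sets of 5 values (10 genes and 10 log ratios in each group), 3 held a value far from the others, with a gap to the nearest value above Dixon's 95% limit on the log2 scale; chance alone gives about 1 in 20. Ctsb was at 556 TPM in cytokine library 10, against 1229 to 1567 TPM in the other 4 of its group. Ctss was at 277 TPM in the same library, against 1180 to 2041 TPM. Ctss was at 11.0 TPM in control library 5, against 82.7 to 148 TPM in the other controls. Library 10 was also the lowest of its group for the summed macrophage and monocyte markers, and control library 5 the lowest of the controls.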

How the results depend on the processing

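The count of 8 members called higher was 6 to 10 under all settings except an exact rank test (0), an adjusted p under 0.01 (1), leaving out libraries 6 and 7 (0) and leaving out library 6; with 1 library left out it ranged from 3 to 10. All members tested kept a log2 change above 0 in every setting run, and none was called lower. Ctsw and Cst7 were not tested with a filter at a TPM of 5. Rescaling moved the median change of all genes from -0.18 to -0.026 with median-ratio scaling, to -0.28 when the top 50 genes by abundance were removed and to -0.37 without mitochondrial genes. Genes called over the whole table numbered 926 higher and 378 lower, so 71.0% were higher, against 60.0% with the top 50 removed, 47.8% without mitochondrial genes, 57.5% with library weights, 50.8% without library 10 and 95% without libraries 6 and 7. Higher calls were 1593 with library weights, 61 at an adjusted p under 0.01, 19 without libraries 6 and 7 and 321 to 1644 with 1 library left out. Lower calls were 170 without a filter, 569 with the top 50 removed, 901 without mitochondrial genes, 613 with quantile normalization, 1176 with library weights, 1 without libraries 6 and 7, 660 without libraries 6, 7 and 10, and 46 to 1594 with 1 library left out. The rank test called 0 in either direction, and an adjusted p under 0.01 left 0 lower. The 5 context lists held 28 genes called higher and 0 called lower: higher calls were 0 by the rank test, 2 at an adjusted p under 0.01, 1 without libraries 6 and 7 and 11 to 40 with 1 library left out, and lower calls were 1 with the top 50 removed, 2 without mitochondrial genes, 2 with library weights and 0 to 2 with 1 library left out. Of 10 member ratios 5 were called, against 0 with a pseudocount of 5, 0 without libraries 6 and 7, 0 without libraries 6, 7 and 10, and 0 to 8 with 1 library left out. Fewer tumours raise the smallest exact p, to 0.0179 without libraries 6 and 7 and 0.0476 without 6, 7 and 10. The log2 change of Ctsk, 0.18, was -0.014 without mitochondrial genes, -0.056 without libraries 6 and 7, and -0.022 (without control library 1) to 0.301 (without library 10) with 1 library left out; the cause was not tested. No paired analysis was possible because the groups share no replicate number.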
